A study of Mus musculus with 17 samples.

Results

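Long RNA recovered with an antibody against MAEL was compared with long RNA recovered with IgG from wild-type mouse testis. The comparison rests on 3 of the 17 libraries of the series, 2 made with anti-MAEL (named a and b) and 1 made with IgG. All 3 came from testis of the 129SvJae strain with an intact Mael gene, and the labels give no age. RNA was extracted after immunoprecipitation, cut to fragments of 120 to 200 bp and primed at random with a kit that loses strand information. The rest of the series measured small RNA, mRNA and ribosome footprints in wild-type and Mael-/- testis and RNA of 50 to 150 nt and of 15 to 50 nt precipitated with anti-MAEL. The features compared were 38207 in number. They were 100 piRNA loci named by a chromosome band, 114 piRNA loci named by a gene, 2 entries named by GenBank records, 18286 transcripts with a coding part and 19705 transcripts without one. A locus with several entries in the files was represented by the entry with the most counts, which reduced 465 rows to 214 loci.

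MAEL (Maelstrom) is a germ cell protein that gathers in the cytoplasmic granules where piRNAs are made, and it is needed for transposon silencing in the male germ line. piRNAs are small RNAs that guide PIWI proteins. In the mammalian testis they are cut from long single-stranded precursor transcripts, most of them made at the pachytene stage of meiosis from intergenic clusters, and others from the 3′ ends of mRNAs. A long-RNA library therefore reads the precursors and not the piRNAs, while IgG reads the RNA that sticks to beads and antibody without MAEL.

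The gene-named loci carry the symbol of a gene, and the stretch before the RefSeq start of that gene is shown for a pair of those that passed the test below. A-MYB, a transcription factor of meiotic germ cells, is known to drive pachytene piRNA precursors. The letters AACTG, a form of the core that MYB proteins bind, were searched on both strands and are in capitals. CAGTT is the same form on the opposite strand. Other forms of the core were not searched, so a stretch without a match may still hold another form. Both stretches are the 250 bases upstream of the start, on the plus strand, in build GRCm38.p6, at chr10:71347513-71347762 for Ipmk, which encodes inositol polyphosphate multikinase, and chr7:30121682-30121931 for Zfp382, a zinc finger gene.
pi-Ipmk: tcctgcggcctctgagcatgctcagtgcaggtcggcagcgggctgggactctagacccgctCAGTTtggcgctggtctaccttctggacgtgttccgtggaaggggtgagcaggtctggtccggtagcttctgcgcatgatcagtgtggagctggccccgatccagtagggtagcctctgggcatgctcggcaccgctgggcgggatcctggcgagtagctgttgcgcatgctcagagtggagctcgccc
pi-Zfp382: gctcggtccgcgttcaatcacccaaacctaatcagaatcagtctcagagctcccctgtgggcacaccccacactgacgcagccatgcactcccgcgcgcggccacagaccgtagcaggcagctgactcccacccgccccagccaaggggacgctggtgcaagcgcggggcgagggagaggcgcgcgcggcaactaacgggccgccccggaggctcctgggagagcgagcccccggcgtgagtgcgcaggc
The stretch of Ipmk held 1 match and that of Zfp382 held 0, as did those of Phf20 and Zfp280b, so that 1 of the 4 promoters available for loci that passed held a match. Of all 32851 promoters of this length in the table, 39.1% held a match, and of the 100 promoters of genes that name loci, 38.0%. Neither the start of the piRNA precursor nor the position of these loci is given in the files, so whether the precursor begins at this start was not tested.

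The 3 libraries held 5753425 counts (anti-MAEL a), 10876416 counts (anti-MAEL b) and 7791089 counts (IgG). Levels are in CPM, a library's counts scaled to the same total over all features, and fold changes are on the log2 scale after TMM scaling, which multiplied the library sizes by 0.7464, 1.142 and 1.173. Because the factor of library a is the lowest, its ratio to IgG is larger on the scaled values than in CPM. The anti-MAEL libraries differed by more than sampling noise, with a chi-square of 51.5 per degree of freedom over 15057 features, and were kept as 2 samples. Whether they came from separate animals is not stated in the labels, and p-values then describe the spread between these samples alone, which may be technical. The edgeR test used below also takes the spread of each feature largely from other features. It has a median of 8.69 prior degrees of freedom beside 1 residual degree of freedom. The IgG library has no replicate and is taken to vary like the anti-MAEL pair. An exact permutation test of 2 libraries against 1 cannot go below p = 0.333, so single values such as shares are given without a test. Neither Mael itself nor markers of germ cells and of other testis cells could be read, because 0 of the 37991 transcript IDs matched a gene symbol in the reference tables.

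piRNA loci named by a chromosome band took a larger share of the long RNA with anti-MAEL than with IgG. They held 6.24% of the counts in library a, 5.12% in library b and 1.11% with IgG, a mean of 5.68% ± 0.792 (SD, n = 2) against the IgG value (exact binomial 95% interval 1.10% to 1.12%, counting error only). Loci named by a gene held 0.920%, 0.986% and 0.609%, a smaller step in which both anti-MAEL libraries were still above IgG. This share is a sum that a few abundant loci can carry. The median log2 CPM ratio of gene-named loci (pseudocount of 0.5 CPM) was -0.31 in library a and 0.14 in library b. The GenBank entries held 0.773%, 0.576% and 0.0762%. Transcripts with a coding part held 51.3% and 60.5% with anti-MAEL and 62.0% with IgG, and those without one held 40.8%, 32.9% and 36.2%, so that the 2 anti-MAEL libraries differed from each other by more than their mean differed from IgG. A large part of the coding share was a single transcript, ENSMUST00000038863, at 276220 CPM in library a, 242250 CPM in b and 257980 CPM in IgG. In testis RNA, the number of cells that hold a bound precursor and the amount bound in each cell cannot be told apart.

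Over all 16066 features with enough counts to test, 206 rose with anti-MAEL at an adjusted p under 0.05 (edgeR quasi-likelihood test, Benjamini-Hochberg adjustment), a background of 1.28%. None fell (0%), while 139 features had a lower value at an unadjusted p under 0.05 and 1086 a higher one. DESeq2 called 346 higher (2.15%) and 0 lower. In all 206, each anti-MAEL library alone was above IgG, with scaled log2 ratios of at least 1.58 in library a and 1.54 in library b. The 206 were 10 band-named loci, 6 gene-named loci, 105 transcripts with a coding part and 85 without one. Which features pass depends on the scaling. With library totals in place of TMM, 101 features passed, 51 of them among the 206, and none of the 16 loci did.

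**Figure D1:**
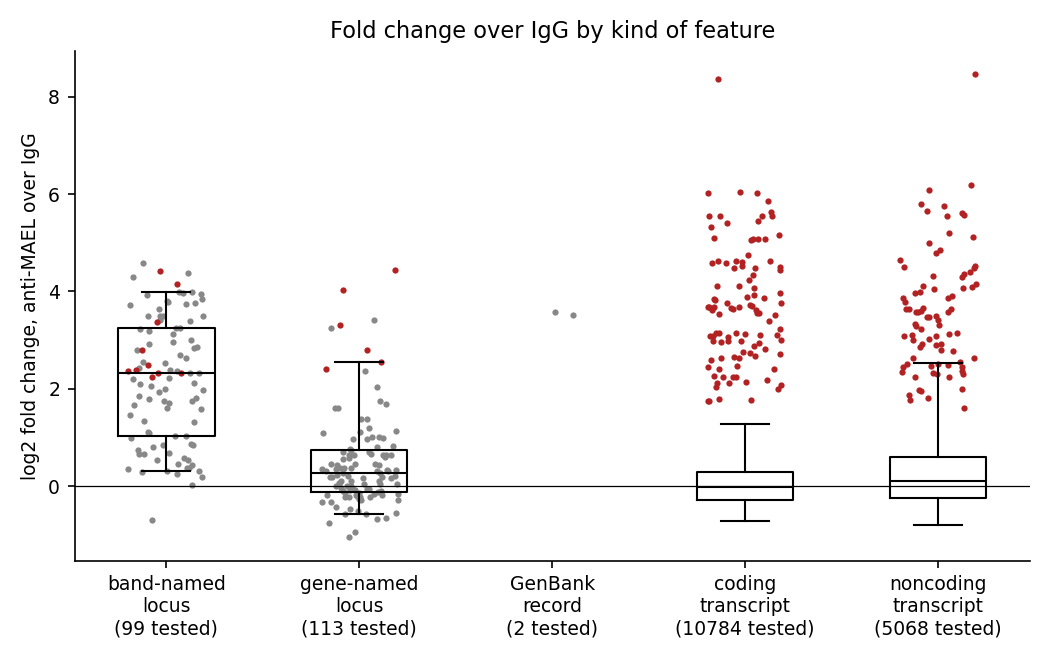
Log2 fold change of anti-MAEL over IgG for each kind of feature, with boxes at the quartiles, whiskers at the 5th and 95th percentiles, red points for features that passed the test and grey points for the loci and GenBank entries that did not. The box of the band-named loci lies above 0, with a median of 2.33, while the medians of both kinds of transcript lie near 0. TMM scaling itself sets the bulk of features near 0.

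Of the 99 band-named loci tested, 10 passed the test (10.1%, against 1.28% of all features), and the median log2 fold change over the 99 was 2.33 (quartiles 1.03 and 3.25), against 0.02 over all features. In 97 of the 99 both anti-MAEL libraries were above IgG, against 35.1% of all features, and in 70 both were at least 2-fold above it (70.7%, against 6.82%). The median was 2.60 from library a alone and 1.83 from library b alone. The locus 1-qE2.3-2, with an annotated length of 122 nt, was not tested because it had too few counts. Of the 113 gene-named loci tested, 6 passed (5.31%). Their median was 0.26, both libraries were above IgG at 62, and both were at least 2-fold above it at 18 (15.9%). The direction of this median depends on the scaling, since it was -0.05 with library totals, where the median over all features was -0.28. In CPM without scaling (log2 ratios with a pseudocount of 0.5 CPM) the gene-named median was -0.31 in library a and 0.14 in library b, while the band-named median was 1.94 and 1.77. pi-Fbxo41 was not tested, for the same reason as 1-qE2.3-2. Reads of the long-RNA kit do not keep the strand, so a gene-named locus and the mRNA of its gene cannot be told apart in these counts, nor can partners that overlap on opposite strands.

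The 10 band-named loci that passed were 8-qC5-2209, 9-qF4-150, 13-qA3.1-213, 4-qD2.2-2182, 7-qF3-246, 9-qA1-178, 6-qC3-2394, 3-qA3-2052, 5-qG2-2301 and 1-qC1.3-637. The locus 8-qC5-2209 (14448 nt) held 834 CPM in anti-MAEL a, 699 CPM in b and 47.6 CPM in IgG. Its log2 fold change was 4.41 ± 0.84, with an adjusted p of 0.0407 by edgeR's quasi-likelihood test. Here and below, the value after ± at a log2 fold change is an SE back-calculated from the test's F statistic. The CPM ratio to IgG was 17.5 (95% interval 15.8 to 19.5, counting error only) in library a and 14.7 (13.2 to 16.3) in library b, so both libraries put this locus far above IgG.

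The locus 9-qF4-150 (24797 nt) held 547 CPM and 466 CPM against 37.7 CPM, a log2 fold change of 4.15 ± 0.73 (edgeR adjusted p = 0.0275). It was the 1 locus over 20 kb in length that passed. The shortest, 13-qA3.1-213 (1917 nt), held 48.3 CPM and 36.5 CPM against 5.39 CPM. Its log2 fold change was 3.37 ± 0.49 (edgeR adjusted p = 0.0140), the smallest adjusted p among the band-named loci.

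The other 7 had log2 fold changes between 2.25 and 2.80. 4-qD2.2-2182 held 207 CPM and 148 CPM against 34.3 CPM, with library a above b. 6-qC3-2394 held 167 CPM and 202 CPM against 45.3 CPM, with library b above a. 3-qA3-2052 held 170 CPM and 175 CPM against 44.2 CPM, with nearly equal values in both libraries. In none of these 3 did an anti-MAEL library come near the IgG level. 5-qG2-2301 held 148 CPM and 123 CPM against 35.7 CPM. 9-qA1-178 held 172 CPM and 151 CPM against 40.8 CPM. Both showed a difference from IgG several times larger than that between libraries a and b. 1-qC1.3-637 held 93.2 CPM and 104 CPM against 26.6 CPM. 7-qF3-246 held 80.8 CPM and 72.0 CPM against 17.8 CPM. When the entries of a locus were summed and not represented by the largest, 9-qA1-178, 6-qC3-2394, 3-qA3-2052 and 5-qG2-2301 no longer passed, with log2 fold changes between 2.06 and 2.37.

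**Figure D2:**
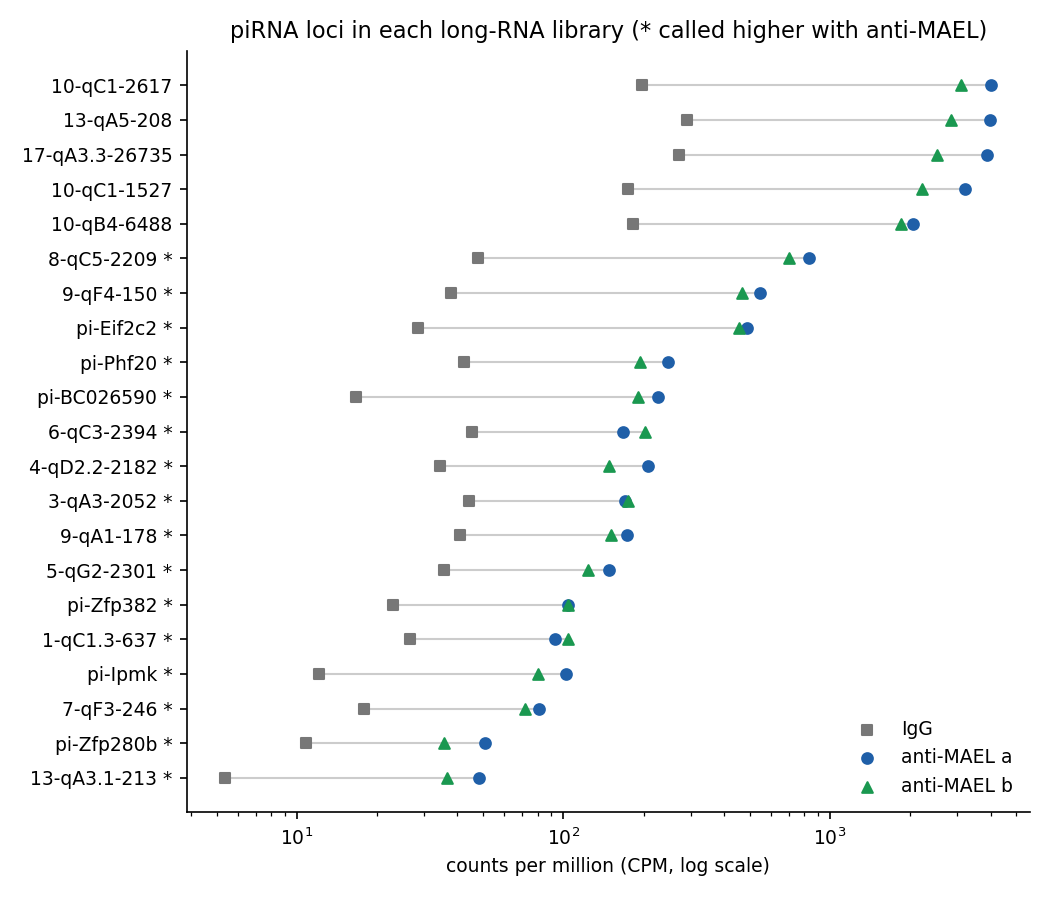
Level in CPM, on a log scale, of the 16 loci that passed the test (starred) and of the 5 loci with the most anti-MAEL counts, with a square for IgG, a circle for anti-MAEL a and a triangle for anti-MAEL b. At every locus shown both anti-MAEL symbols lie to the right of the IgG square.

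The 6 gene-named loci that passed were pi-Eif2c2, pi-BC026590, pi-Ipmk, pi-Phf20, pi-Zfp382 and pi-Zfp280b. pi-Eif2c2, named for the gene of the Argonaute protein AGO2 that works with microRNAs, held 487 CPM in anti-MAEL a, 457 CPM in b and 28.4 CPM in IgG. Its log2 fold change was 4.44 ± 0.70 (edgeR adjusted p = 0.0186), second among the 212 loci tested. pi-BC026590 held 226 CPM and 190 CPM against 16.7 CPM, a log2 fold change of 4.04 ± 0.55 (edgeR adjusted p = 0.0103). These were the gene-named loci with the largest fold changes, and in both the lower anti-MAEL library was still far above IgG.

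pi-Ipmk, whose upstream stretch is printed above, held 102 CPM and 80.2 CPM against 12.1 CPM, a log2 fold change of 3.32 ± 0.48 (edgeR adjusted p = 0.0134). pi-Phf20, named for a PHD finger protein of chromatin, held 247 CPM and 194 CPM against 42.4 CPM. pi-Zfp382 held 104 CPM in each anti-MAEL library against 23.0 CPM, so a and b were nearly equal and both stood well above IgG. pi-Zfp280b, named for another zinc finger gene, held 50.8 CPM and 35.6 CPM against 10.8 CPM, with library a 1.43 times library b. The log2 fold changes of these last 3 loci were 2.79, 2.55 and 2.41, and pi-Phf20 no longer passed with its entries summed.

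Some of these loci may share reads with a listed transcript. pi-Zfp280b had the same counts in all 3 libraries as 1 transcript of 5097 nt. pi-Eif2c2, pi-Phf20, 7-qF3-246 and 13-qA3.1-213 each had counts within 10% of those of 1 transcript, which also passed the test. At these 5 loci the same RNA may stand under both names, and the sources used here do not give how the authors assigned such reads.

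The loci with the most anti-MAEL counts had large fold changes and did not pass the test. 10-qC1-2617 (33189 nt) held 4032 CPM in anti-MAEL a, 3091 CPM in b and 197 CPM in IgG. Its log2 fold change, 4.59 ± 1.44, was the largest of all loci, with an edgeR adjusted p of 0.252. The ratio of its CPM to that of IgG was 20.4 (19.4 to 21.5) in library a and 15.7 (14.9 to 16.5) in library b. 10-qC1-1527 (42831 nt) held 3201 CPM and 2216 CPM against 174 CPM, a log2 fold change of 4.39 ± 1.31. Both loci were far above IgG in each library, and with library totals both passed, at adjusted p = 0.0279 and 0.0441 by the same edgeR test.

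17-qA3.3-26735 (41944 nt), which held the most small RNA counts of any locus in wild-type testis, had 3878 CPM and 2514 CPM against 271 CPM, a log2 fold change of 3.997 ± 1.38. 13-qA5-208 held 3970 CPM and 2832 CPM against 291 CPM. 10-qB4-6488 held 2048 CPM and 1846 CPM against 182 CPM. All 5 passed with DESeq2, with adjusted p between 4.9e-15 and 4.8e-10. Of the 30 band-named loci with a log2 fold change above 3, 3 passed with edgeR. The scaled ratio was higher in library a than in library b at all 30, and 29 were higher in a in CPM before any scaling. Those that did not pass had a mean of 646 to 3562 CPM with anti-MAEL, and the median adjusted p over the 30 was 0.117. edgeR's test uses a spread that depends on the level, and DESeq2, which estimates it differently, called 66 of the 99 band-named loci higher.

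**Figure D3:**
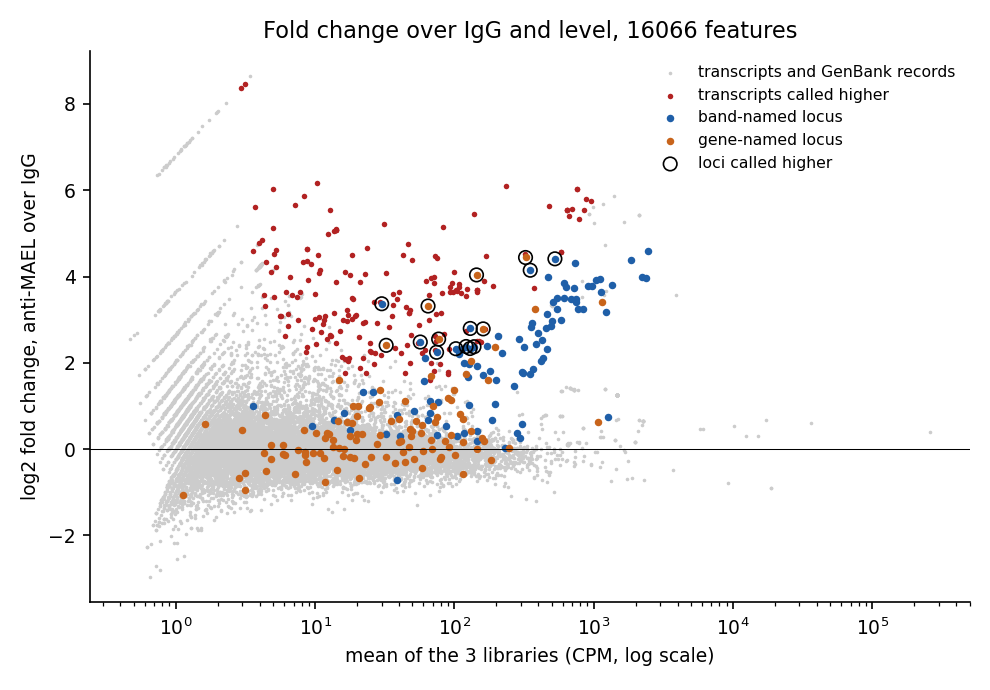
Log2 fold change over IgG against the mean level of the 3 libraries in CPM, on a log scale, for all 16066 tested features, with transcripts that passed in red, band-named loci in blue, gene-named loci in orange and circles around loci that passed. The abundant band-named loci at the upper right carry no circle, and the circled loci lie at middle levels.

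Both anti-MAEL libraries ordered the band-named loci in nearly the same way. Spearman's correlation of the scaled log2 ratios was 0.984 over the 99 loci, given as a description across loci that share libraries and the same IgG denominator. The median ratio was 2.60 in library a and 1.83 in library b after TMM scaling, and 1.94 and 1.77 in CPM without it, so most of the gap between these medians enters with the scaling factors. Among gene-named loci the same correlation was 0.837 over 113 loci.

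**Figure D4:**
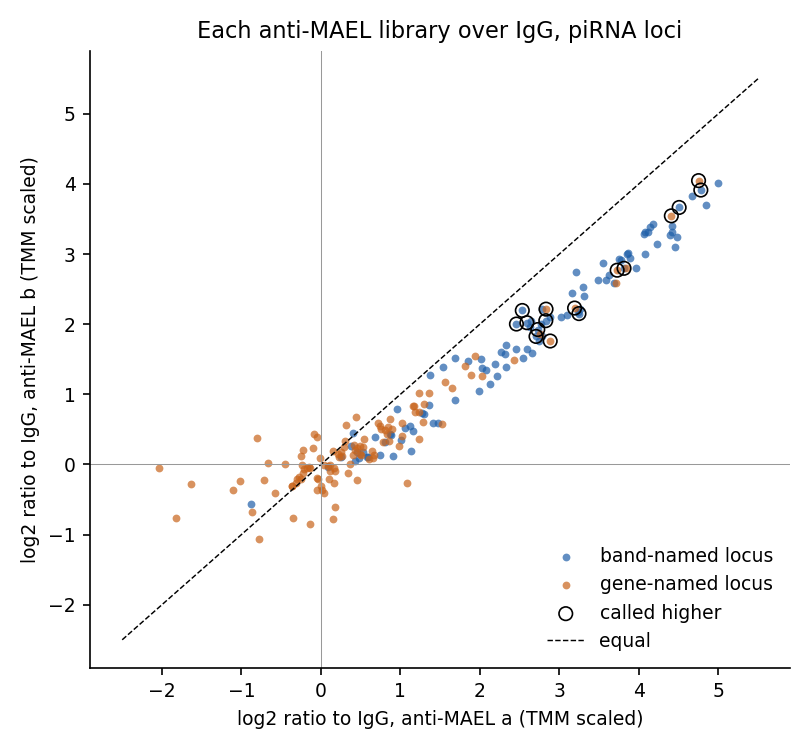
Scaled log2 ratio to IgG in anti-MAEL library b against that in library a for the 99 band-named (blue) and 113 gene-named (orange) loci tested, with circles around loci that passed and a dashed line at equal values. Points at high ratios lie under the line, which is where library a gives the larger ratio.

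Long band-named loci had a higher median fold change than shorter ones. The 39 band-named loci over 20 kb had a median log2 fold change of 3.24 (lowest 0.74), and in 38 both libraries were at least 2-fold above IgG. The 60 loci of up to 20 kb had a median of 1.53 (lowest -0.70), and 32 of them reached 2-fold in both. Spearman's correlation of fold change with annotated length was 0.635 over the 99 loci, as a description. Per kb of length, the median level with anti-MAEL was 23.7 CPM per kb at the long loci and 22.1 CPM per kb at the shorter ones, while with IgG it was 3.79 and 6.86 CPM per kb. So with anti-MAEL the 2 length groups had similar medians per length, and they differed in the IgG library. Among gene-named loci, the 3 over 20 kb had a median log2 fold change of 3.26 and the 110 of up to 20 kb one of 0.22, while Spearman's correlation with length was -0.070 over the 113.

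**Figure D5:**
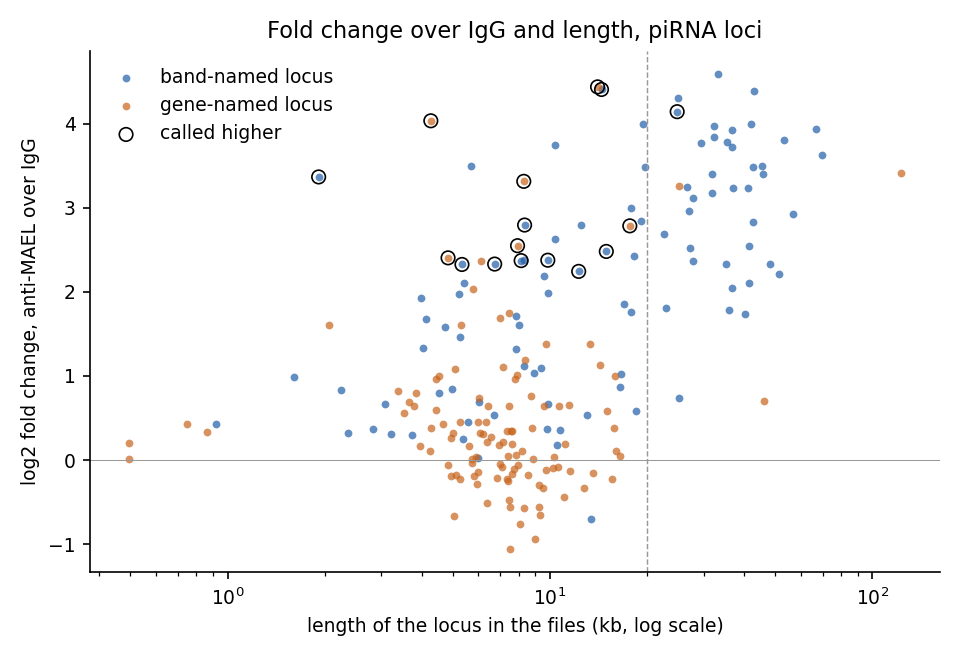
Log2 fold change over IgG against the annotated length of the locus in kb, on a log scale, for band-named (blue) and gene-named (orange) loci, with circles around loci that passed and a dashed line at 20 kb. Nearly all band-named loci to the right of the line have a log2 fold change above 1, while shorter loci reach from below 0 to above 4.

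Of the 3 gene-named loci over 20 kb, pi-D10Wsu102e (122736 nt) held 1857 CPM and 1383 CPM against 203 CPM, a log2 fold change of 3.41 ± 1.04 (edgeR adjusted p = 0.228). pi-Ccrn4l (25071 nt), named for the gene of the deadenylase nocturnin, held 622 CPM and 438 CPM against 74.6 CPM, a log2 fold change of 3.26 ± 0.75 (edgeR adjusted p = 0.0790). Both had values far above IgG in each library and did not pass. The third, pi-Zfp652 (46197 nt), held 40.0 CPM and 46.3 CPM against 33.6 CPM, a log2 fold change of 0.71 ± 0.30 (edgeR adjusted p = 0.598). All 3 were named after their values were seen.

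Loci with the same band did not always have similar values. The 5 loci of 10-qC1 ranged from 0.87 to 4.59, and 4 of them were at least 2-fold above IgG in both libraries. At 17-qA3.3, 17-qA3.3-26735 and 17-qA3.3-27363 had log2 fold changes of 3.997 and 3.93, while 17-qA3.3-352 (9824 nt) held 112 CPM and 122 CPM against 116 CPM. At 13-qA5 the 5 loci ranged from 0.45 to 3.995. On chromosome 9 all 6 loci were at least 2-fold above IgG in both libraries, with log2 fold changes from 2.37 to 4.15. All 6 on chromosome 14 were as well, from 1.86 to 3.85. So were all loci of chromosomes 3, 11, 12 and 18 (2, 4, 2 and 2 loci), and 70.7% of the band-named loci tested as a class. On chromosome 8 this held for 2 of 6, and the median was 0.92.

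On the scaled values, both anti-MAEL libraries were under IgG at 1 of the 99 band-named loci and at 26 of the 113 gene-named loci tested. Over all features this held for 5663 of 16066, so neither class exceeded the background. 2-qE5-4 (13441 nt) held 20.2 CPM in anti-MAEL a, 38.1 CPM in b and 58.0 CPM in IgG, a log2 fold change of -0.70 ± 0.27 (edgeR adjusted p = 0.481). It was the band-named locus with both libraries under IgG after scaling. 15-qE1-3710 held 179 CPM and 250 CPM against 264 CPM. 6-qF3-3040 held 118 CPM and 164 CPM against 155 CPM. Their log2 fold changes, 0.03 and 0.18, turn negative with library totals (-0.30 and -0.15), and that of 15-qE1-3710 also without library a (-0.03), so these 2 loci have no settled side of IgG. Among gene-named loci, pi-Bend4 had 6.26 CPM and 10.9 CPM against 18.0 CPM, a log2 fold change of -0.76. pi-Zyg11a and pi-Snx30 had values of -0.94 and -1.06 from 40 and 15 IgG counts. None of these 3 passed, with an edgeR adjusted p between 0.688 and 0.999.

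In small RNA of wild-type testis, the 10 band-named loci that passed ranged from 66.6 to 3556 CPM with a median of 398 CPM, against a median of 2850 CPM for the 89 that did not. The 6 gene-named loci ranged from 101 to 2518 CPM with a median of 369 CPM, against 37.1 CPM for the other 107. So band-named loci that passed had less small RNA than those that did not, and gene-named loci that passed had more. The band-named loci that passed also had lower IgG levels (median 36.7 against 104 CPM) and shorter lengths (median 9094 against 17792 nt). The spread that edgeR's test uses depends on the level, and its part in the small RNA difference was not tested. In the library of 15 to 50 nt RNA precipitated with anti-MAEL, pi-Phf20 stood at 7274 CPM, 5-qG2-2301 at 1358 CPM and 9-qF4-150 at 1255 CPM, while 13-qA3.1-213 stood at 4.16 CPM. That library and the one of 50 to 150 nt have no replicate and no IgG partner. Over the 99 band-named loci, Spearman's correlation of the fold change over IgG was 0.455 with the small RNA level, 0.768 with the level in the anti-MAEL library of 50 to 150 nt and 0.717 with that of 15 to 50 nt. Over the gene-named loci these were 0.561, 0.606 and 0.480. Levels were not divided by length here, and longer loci had both more counts and larger fold changes.

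Both GenBank entries were far above IgG and neither passed. The entry of 7713 nt, whose record is a mouse LINE-1 retrotransposon sequence, held 6423 CPM in anti-MAEL a, 4724 CPM in b and 626 CPM in IgG, a log2 fold change of 3.58 ± 1.62 (edgeR adjusted p = 0.667). LINE-1 elements move by copying their RNA into DNA, and the piRNA pathway restrains them in male germ cells. The other entry, of 5213 nt, held 1310 CPM and 1039 CPM against 136 CPM, a log2 fold change of 3.52 ± 0.93 (edgeR adjusted p = 0.137). DESeq2 called both higher, with adjusted p = 8.19e-09 and 7.17e-09. Repeats have many near-identical copies, and the sources used here do not give how the authors counted reads that match several places.

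Few transcripts passed the test. TMM scaling sets the bulk of features near a log2 fold change of 0, and most features tested are transcripts. Their medians near 0 therefore cannot show that transcripts match IgG. With library totals the medians were -0.32 for coding and -0.20 for noncoding transcripts. Of the 10784 transcripts with a coding part that were tested, 105 passed (0.974%) with a median over all of them of -0.02, and 491 were at least 2-fold above IgG in both libraries (4.55%, against 6.82% of all features). Of the 5068 without one, 85 passed (1.68%), the median was 0.10 and 514 (10.1%) were at least 2-fold above in both. Among these 5068, 191 had at most 3 IgG counts and 32 had 0, against 76 and 4 of the 10784 coding ones. Such transcripts passed the filter through their anti-MAEL counts alone. The part of the filter in these shares and medians was not tested. In the fit that added the 2 mRNA libraries of wild-type testis, which share the estimate of the spread, 108 of 12431 coding transcripts passed (0.869%). Without library a that number was 63, and without library b it was 90.

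The transcripts that passed had more small RNA, by their medians, than the transcripts tested as a whole. Of the 105 coding ones, 64 had over 10 CPM in small RNA of wild-type testis (61.0%), against 5.89% of all coding transcripts tested, and their median was 17.1 CPM against 0.405 CPM. Of the 85 noncoding ones, 45 had over 10 CPM (52.9%, against 10.4%). Their median length was 1500 nt, against 739.5 nt for the noncoding transcripts tested. Of the coding ones, 20 (19.0%) had under 1 CPM in wild-type mRNA, against 9.48%. Those small RNA and mRNA libraries took no part in choosing the 206 features, and the difference between the 2 sets was not tested, since transcripts of a gene or locus are not independent. Of the 105 coding transcripts, 12 shared their 3 counts with another of them, leaving 98 distinct sets of counts.

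The noncoding transcript ENSMUST00000119963 (412 nt) had the largest fold change among transcripts that passed with a mean of at least 5 CPM. It held 96 counts and 151 counts with anti-MAEL and 2 counts with IgG, or 16.7 CPM and 13.9 CPM against 0.257 CPM. The ratio was 65.0 (95% counting interval 17.5 to 544) in library a and 54.1 (14.7 to 451) in library b, and its edgeR adjusted p was 0.00976. In small RNA of wild-type testis it stood at 612 and 601 CPM. ENSMUST00000167363 (478 nt), also noncoding, held 419 CPM and 284 CPM against 6.93 CPM, a log2 fold change of 6.09 ± 0.79 (edgeR adjusted p = 0.0102). It stood at 1368 CPM in the anti-MAEL library of 15 to 50 nt and at 17.1 CPM ± 3.61 (SD, n = 2) in total small RNA. Of the transcripts that passed, 6 coding and 8 noncoding ones had at most 3 IgG counts, and their fitted fold changes depend on the prior count.

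At the lower end, ENSMUST00000157400 (290 nt, noncoding) held 21.2 CPM in anti-MAEL a, 43.9 CPM in b and 97.2 CPM in IgG, a log2 fold change of -1.30 ± 0.29. Its edgeR adjusted p of 0.0702 was the smallest on this side. ENSMUST00000022616 (1811 nt, coding) held 4.52 CPM and 10.3 CPM against 25.03 CPM, with an edgeR adjusted p of 0.106. Both were named after their values were seen, and in both the 2 anti-MAEL libraries lay under IgG.

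A single coding transcript, ENSMUST00000038863 (3881 nt), took 276220 CPM in anti-MAEL a, 242250 CPM in b and 257980 CPM in IgG. Its share did not separate the antibodies, and its log2 fold change of 0.40 was -0.05 without library a. In wild-type mRNA, where counts cover the coding part alone, it stood at 15.3 and 20.6 CPM. With this transcript left out, 220 features passed, among them all 206.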

How the data were processed

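Long RNA precipitated with anti-MAEL (2 libraries) or IgG (1 library) from wild-type mouse testis was analysed. The deposited files hold raw counts of reads per feature, per the file headers. Per the labels' protocols the kit does not keep the strand. Per the submitters' processing notes, build mm9 was used with Bowtie2 2.0.6, CASAVA 1.8 and TopHat2 2.0.7, whose roles they do not state. The other counting steps are not given in the sources used here. No genome of that build was used, and the piRNA loci carry no coordinates in the files.

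The entry of each piRNA locus with the most counts over the 3 libraries was kept. The test of the counts was that of edgeR 4.0.16 under R 4.3.3 (TMM scaling, filterByExpr, quasi-likelihood test with 1 residual degree of freedom, Benjamini-Hochberg adjustment over all 16066 features at 0.05). The same test was also run on counts simulated from the means and spread of this fit. That simulation gave IgG the same spread as the anti-MAEL libraries, so it could not check that assumption. The SE of a log2 fold change is the size of the unshrunk fold change divided by the square root of the test's F statistic. DESeq2 1.42.0 was an alternative, and the rest used Python 3.11.15. Ratios per library have exact conditional intervals and shares exact binomial ones, both at 95% confidence. These cover counting error only, as reads that carry no molecular identifiers are not independent. Log2 ratios of CPM used a pseudocount of 0.5 CPM. Promoter sequences are RefSeq's (GRCm38.p6), and 81 of 114 gene-named loci matched.

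Named features had passed, had a mean of at least 5 CPM and both anti-MAEL libraries on the same side of IgG (up to 10 loci of each kind and 2 transcripts per direction, by fold change). To them were added the 5 loci with the most anti-MAEL counts, the 3 of each kind with the smallest fold changes, the GenBank entries and the most abundant transcript. The transcript IDs matched 0 symbols, so lists of piRNA pathway proteins and of cell type markers were not used. Members and lists were chosen with earlier results of these data known.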

Additional observations from a re-analysis of the deposited data

How the results depend on the processing

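The 206 features higher with anti-MAEL became 101 with library totals, 322 with DESeq2's size factors, 346 with DESeq2, 660 with no filter and 374 with a filter of 20 counts. The 0 lower became 1 with DESeq2's size factors, 10 with no filter, 1 with the filter of 20 counts and 1 with transcripts of identical counts collapsed. The count of 10 band-named loci became 2, 21, 66, 62 and 29 under the same 5 settings as the 206. The 2 with library totals were 10-qC1-2617 and 10-qC1-1527, which are not among the 10. That count was 27 entries with every entry kept, 6 with entries summed and 23 with identical transcripts collapsed. The 6 gene-named loci became 0, 10, 11, 16 and 13 under those 5 settings. The 105 coding transcripts became 31 with library totals, 292 with no filter and 162 with the filter of 20 counts. The 85 noncoding ones became 151 with DESeq2's size factors, 139 with DESeq2, 289 with no filter and 170 with the filter of 20 counts. All 206 remained with DESeq2's size factors, with no filter, with 20 counts, with a prior count of 2 and without the most abundant transcript, and 51 remained with library totals. The cause of these changes was not tested.

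Library totals moved the median over all features from 0.02 to -0.28. The median of gene-named loci was then -0.051, of coding transcripts -0.32 and of noncoding ones -0.20. The log2 fold changes of 15-qE1-3710 and 6-qF3-3040 were then -0.30 and -0.15. Medians without library a and without library b were 1.83 and 2.62 for band-named loci, 0.19 and 0.35 for gene-named loci, -0.013 and -0.046 for coding and 0.035 and 0.11 for noncoding transcripts. ENSMUST00000038863 was at -0.048 without library a and 0.77 without library b, and 15-qE1-3710 was at -0.032 without library a. In the fit of 5 libraries the count of 108 was 63 without library a and 90 without library b. The share of gene-named loci over IgG was 1.56, and 1.27 with every entry counted. Leaving out 1 anti-MAEL library gave a ratio of shares between 4.61 and 5.62 for band-named loci, 1.51 and 1.62 for gene-named loci and 7.56 and 10.2 for GenBank entries. In the fit of 3 libraries, leaving out 1 leaves 1 against 1, which has no test. No paired analysis was possible because the IgG library carries no replicate number. Of 319 values of named features under alternatives with a test, 282 kept their direction and side of the threshold, 21 no longer passed, 14 came to pass and 2 turned. Of 64 values with 1 anti-MAEL library left out, which have no test, 62 kept their direction and 2 turned.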

Other observations

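The locus 1-qE2.3-2 (122 nt), which had too few counts to test in the long-RNA libraries (0.348 CPM in anti-MAEL a, 0.184 CPM in b and 0.128 CPM in IgG), stood at 516 CPM in the anti-MAEL library of 50 to 150 nt. In the anti-MAEL library of 15 to 50 nt it was at 0.122 CPM and in small RNA of wild-type testis at 0.397 CPM. No IgG library of that size class was analysed here, so the value has no background beside it.

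Short features had a higher median than long ones. The 427 tested features of up to 200 nt had a median log2 fold change of 0.69, and 1 of them passed (0.234%), while the 1580 over 5000 nt had a median of -0.19 and 20 passed (1.27%), against 1.28% of all features. The long-RNA libraries were made from fragments of 120 to 200 bp, and the part of fragment length in these medians was not tested. Only features with enough counts were tested, and more anti-MAEL than IgG libraries entered that filter. Features with few counts may so have been kept more often for their anti-MAEL counts. The part of the filter in these medians was not tested either.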
